A study of Homo sapiens with 6 samples.

Results

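SOS1, DUSP6, FOSL1 and MMP1 mark 4 steps of the route from RAS through the kinase ERK to the transcription factor AP-1. They were taken by name from a deposited comparison table of 403 genes, and all 4 were found. The table came from RNA-seq of HCCLM3, an established human hepatocellular carcinoma cell line labelled as wild type. Cells had 10 µM ginkgolic acid, a salicylic acid with a long alkyl chain that is found in Ginkgo, or its vehicle DMSO, each for 24 h, with 3 libraries per group. Nothing in the labels ties the replicates to separate cultures, so the spread between libraries may be technical. The 4 genes were picked because they differ in this comparison, and the table itself holds only genes with an absolute log2 fold change above 1 and an adjusted p under 0.05 in the authors' analysis. Their differences are therefore given as a description, with no test.

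As background, growth factor receptors recruit the exchange factor SOS1 to the membrane, where it loads RAS with GTP. RAS then switches on the kinases RAF, MEK and ERK in turn. Active ERK raises the amount and activity of AP-1 subunits and also induces its own brakes, among them DUSP6, a phosphatase that removes the activating phosphates from ERK. FOSL1 encodes FRA-1, a FOS-family subunit of AP-1 that depends strongly on ERK. MMP1 encodes interstitial collagenase, a secreted protease that cuts fibrillar collagen and is a classical AP-1 target. In liver cancer cells this route is known for its part in growth and invasion.

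SOS1 differed in the opposite direction to DUSP6, FOSL1 and MMP1 on the authors' scaling. Other genes of the table listed as ERK-responsive or as AP-1 targets, NR4A3, LAMB3 and KRT17, were higher, as SOS1 was. SOS1 was 2.09-fold higher with ginkgolic acid than with DMSO. DUSP6 was 2.19-fold lower, FOSL1 2.04-fold lower and MMP1 2.46-fold lower. For all 4 genes every library of one group lay outside the range of the other, as was so for 98.3% of the genes in this selected table. Among all genes held, 62.8% were higher and 37.2% lower with ginkgolic acid. Levels are given as normalised read counts, that is, reads of a gene over the size factor of its library.

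**Figure D1:**
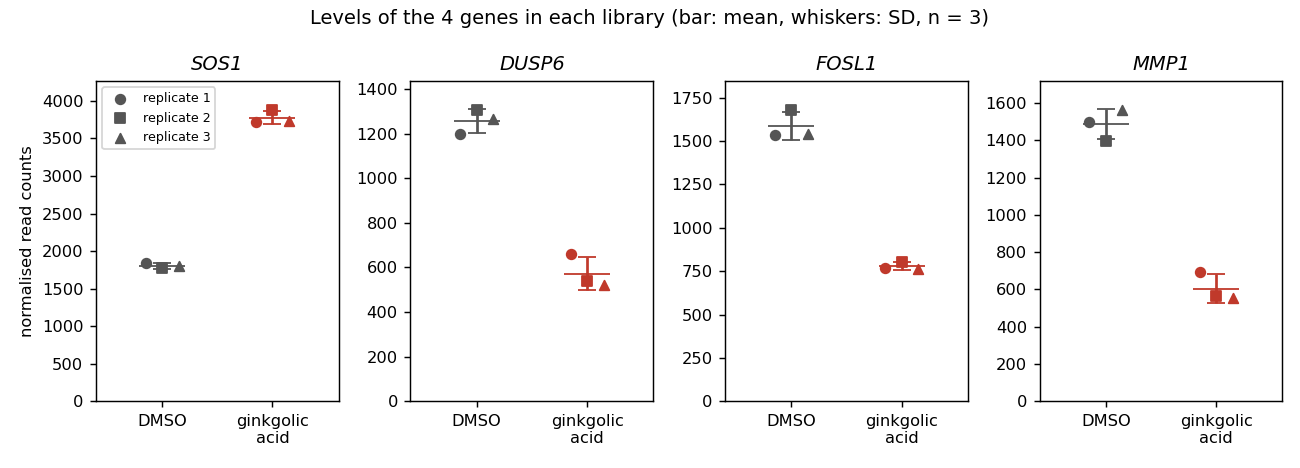
Normalised read counts (vertical axis, from 0, scaled for each gene) of SOS1, DUSP6, FOSL1 and MMP1 in the 3 DMSO and 3 ginkgolic acid libraries, with marker shape for the replicate, a bar for the mean and whiskers for the SD. The ginkgolic acid libraries lie above the DMSO libraries for SOS1 and below them for the other genes.

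SOS1 was among the most abundant genes of the table, with the fifth highest mean over the 6 libraries. The gene (ENSG00000115904) lies on the minus strand of chromosome 2, 38981396 to 39124345 on GRCh38. It had 1841, 1769 and 1801 normalised read counts in DMSO replicates 1, 2 and 3. With ginkgolic acid it had 3720, 3875 and 3733. The lowest ginkgolic acid library was 2.02 times the highest DMSO library. The means were 1804 ± 35.9 and 3776 ± 86.0 (SD, n = 3 each), and the log2 fold change was 1.07 (SE 0.06). The coefficient of variation between libraries was 1.99% with DMSO and 2.28% with ginkgolic acid. Counting error alone would give 2.34% and 1.63%, so the treated libraries lay slightly further apart than counting error. In size, the change of SOS1 ranked 228 of the 253 higher genes in the authors' deposited table. A low rank by size and a level near the top of the table thus went together.

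The size of this difference rests on the authors' scaling between libraries. After rescaling by median ratios over the 403 selected genes, the log2 fold change of SOS1 was 0.16. This rescaling shifted the median gene by -0.88, since most of the selected genes were higher, and it moved DUSP6 to -2.04, FOSL1 to -1.93 and MMP1 to -2.20. All values in the text other than these use the authors' scaling.

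SOS1 has an intronic neighbour in the table. SOS1-IT1 is a sense-intronic transcript on the same strand (chromosome 2, 38992279 to 38993857) that shares 0 exonic bases with SOS1. It had 14.0, 12.4 and 14.0 normalised read counts with DMSO and 30.7, 29.3 and 45.6 with ginkgolic acid. It was picked out after its values were seen. The 2.62-fold difference rests on 41 reads against 108, and the libraries did not overlap. Per kilobase of gene length, SOS1-IT1 stood at 10.7 ± 0.738 normalised read counts with DMSO, against 195 ± 3.87 for SOS1. The transcript from inside the SOS1 intron was thus far less dense than the exons and differed in the same direction. Whether its reads come from a transcript of its own or from unspliced SOS1 RNA was not tested.

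The start region of SOS1 is shown because it can be searched for the sites of the factors that ERK acts on. Of the 4 genes, 2 (SOS1 and DUSP6) had promoter windows in the RefSeq table on GRCh38.p14. FOSL1 and MMP1 had no entry. The windows hold 250 bases before and 50 after a start, and SOS1 has several starts. The sequence printed is chr2:39121052-39121301, minus strand, the 250 bases before the RefSeq start that coincides with the upstream edge of a GENCODE exon. Starts of GENCODE transcripts were not compared. Capitals mark, on either strand, the core GGAA of ETS factors, some of which are phosphorylated by ERK.
SOS1 promoter: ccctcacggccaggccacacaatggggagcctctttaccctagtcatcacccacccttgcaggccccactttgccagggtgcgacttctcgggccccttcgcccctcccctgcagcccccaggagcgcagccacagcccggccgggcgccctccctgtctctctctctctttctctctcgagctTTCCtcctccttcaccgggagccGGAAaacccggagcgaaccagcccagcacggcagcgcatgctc
This stretch holds 2 cores. Its 300-base window holds 3, which is the median of the 35116 RefSeq windows, and 66.0% hold at least as many. The other SOS1 window, at a start further upstream, holds 5 cores. The longer ETS motif CCGGAA, which contains the core, had 1 match in the printed window and 0 in the other SOS1 window, and 17.2% of all windows hold at least 1 match on either strand. The AP-1 motif TGANTCA had 0 matches in the SOS1 and DUSP6 windows and occurs in 7.71% of all windows. The cAMP-response motif TGACGTCA likewise had 0 matches there and occurs in 1.85% of all windows. Matches are descriptions of the letters and do not show binding.

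DUSP6, the cytoplasmic ERK phosphatase that is itself an ERK-induced feedback gene, was lower in every ginkgolic acid library. The gene (ENSG00000139318) lies on the minus strand of chromosome 12, 89347232 to 89353271. It had 1200, 1305 and 1264 normalised read counts in the DMSO libraries. With ginkgolic acid it had 659, 539 and 521. The lowest DMSO library was 1.82 times the highest ginkgolic acid library, the smallest such gap of the 4 genes. The means were 1256 ± 52.8 and 573.1 ± 75.1 (SD, n = 3 each), and the log2 fold change was -1.14 (SE 0.10). Ginkgolic acid replicate 1 stood above the other ginkgolic acid libraries. The coefficient of variation was 13.1% with ginkgolic acid, where counting error alone gives 4.20%. The treated libraries thus lay further apart, relative to counting error, for DUSP6 than for SOS1.

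The antisense gene AC024909.2 covers 40.5% of the exonic bases of DUSP6 on the other strand. The labels do not state whether the counting used strand, so reads of the pair cannot be told apart. AC024909.2 was not analysed here. The RefSeq window at the DUSP6 start held 6 ETS cores, and 16.1% of all windows hold at least as many. The densest stretch is chr12:89352630-89352659, minus strand, which lies 129 to 158 bases before the RefSeq start and is shown for its 3 neighbouring cores, in capitals.
DUSP6 stretch: gagcGGAAaTTCCtTTCCgtttttgtgaat
A longer GENCODE transcript of DUSP6 starts further upstream, so this stretch is a promoter only for the RefSeq start.

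FOSL1, the FOS-family subunit of AP-1, was lower by nearly the same amount in every ginkgolic acid library. The gene (ENSG00000175592) lies on the minus strand of chromosome 11, 65892049 to 65900573, and no other annotated gene overlaps it. It had 1534, 1678 and 1540 normalised read counts with DMSO. With ginkgolic acid it had 766, 806 and 763. The means were 1584 ± 81.0 and 778.2 ± 23.9 (SD, n = 3 each), and the log2 fold change was -1.02 (SE 0.08). The treated libraries had a coefficient of variation of 3.08%, below the 3.59% that counting error alone gives. FOSL1 sits at the edge of what the table could hold. In the authors' deposited table its log2 fold change was -1.03, and 11 of the 403 genes had a smaller absolute value. The smallest absolute value in the table was 1.003.

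MMP1, the collagenase, showed the largest fold of the 4 genes. The gene (ENSG00000196611) lies on the minus strand of chromosome 11, 102789920 to 102798160. It had 1500, 1398 and 1561 normalised read counts with DMSO. With ginkgolic acid it had 695, 567 and 553. The lowest DMSO library was 2.01 times the highest ginkgolic acid library. The means were 1487 ± 82.3 and 605.0 ± 78.5 (SD, n = 3 each), and the log2 fold change was -1.30 (SE 0.10). As for DUSP6, ginkgolic acid replicate 1 was the highest treated library, and the coefficient of variation of 13.0% exceeded the 4.09% of counting error. The transcribed pseudogene WTAPP1 runs over MMP1 on the other strand and shares 150 exonic bases with it, 7.61% of the exonic bases of MMP1. In size, the change of MMP1 ranked 75 of the 150 lower genes in the authors' deposited table, against 111 for DUSP6 and 143 for FOSL1. The folds of these genes were therefore middling or small for the table, while their levels ranked 18, 20 and 16 among its 403 genes.

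Between treated libraries DUSP6 and MMP1 deviated alike, mainly through ginkgolic acid replicate 1. The SEs of their log2 fold changes rest on this same spread. In ginkgolic acid replicate 1 DUSP6 stood 0.21 above its group mean on the log2 scale, and MMP1 also stood 0.21 above. In the same library FOSL1 stood at -0.02 and SOS1 at -0.02. The high values in replicate 1 were thus seen in the phosphatase and the collagenase and not in the AP-1 subunit or the exchange factor. With DMSO the phosphatase and the collagenase did not deviate alike. DUSP6 stood at -0.07, 0.06 and 0.01 in DMSO replicates 1, 2 and 3, and MMP1 at 0.01, -0.09 and 0.07. Other genes shared the high values of ginkgolic acid replicate 1. Of the 42 lower genes with a mean of at least 100 normalised read counts, DUSP6 and MMP1 included, 16 stood more than 0.15 above their group mean in this library, and their median was 0.12. The 60 higher genes at that level had a median of -0.06 there. Ginkgolic acid replicate 1 thus lay somewhat nearer to DMSO in both directions. Without it the log2 fold change was -1.24 for DUSP6 and -1.41 for MMP1.

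Ratios between these genes inside a library do not depend on the scaling between libraries, because the size factor cancels. For each read of SOS1 there were 0.652, 0.738 and 0.702 reads of DUSP6 in the DMSO libraries. With ginkgolic acid there were 0.177, 0.139 and 0.140. The ratio was 4.61-fold lower, and the groups lay far apart. FOSL1 to SOS1 went from 0.834, 0.948 and 0.855 with DMSO to 0.206, 0.208 and 0.204 with ginkgolic acid, 4.26-fold lower. MMP1 to SOS1 went from 0.815, 0.790 and 0.867 to 0.187, 0.146 and 0.148, 5.17-fold lower. DUSP6, FOSL1 and MMP1 were thus lower relative to SOS1 in every treated library. The selection largely fixed this in advance. SOS1 was held as a higher gene and the others as lower genes, each with an absolute log2 fold change above 1. The size of these drops therefore adds no evidence. The ratios also do not show which of the genes moved. The value of 0.16 (SE 0.09) for SOS1 under the rescaling cannot decide this. That rescaling centres the libraries on selected genes, most of them higher.

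**Figure D2:**
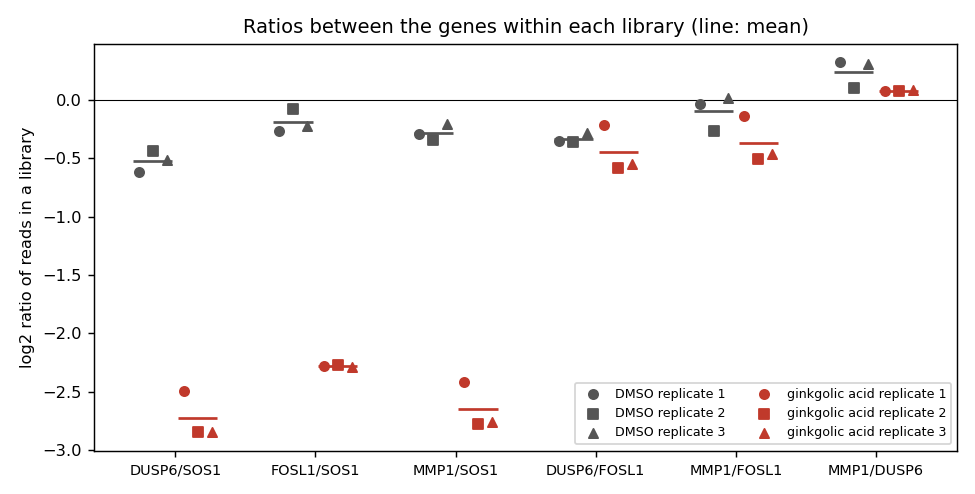
Log2 ratio of reads (vertical axis) for 6 pairs of the genes within each library, with DMSO in grey, ginkgolic acid in red, marker shape for the replicate and a line for the group mean. The 3 ratios to SOS1 differ between the groups by more than 2 log2 units, a gap largely fixed in advance by the selection of the genes. Those among DUSP6, FOSL1 and MMP1 differ by less than 0.3.

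Among DUSP6, FOSL1 and MMP1 the ratios differed little. DUSP6 to FOSL1 was 0.778 to 0.820 with DMSO and 0.668 to 0.860 with ginkgolic acid, and the groups overlapped. MMP1 to FOSL1 was 0.834 to 1.01 with DMSO and 0.704 to 0.907 with ginkgolic acid, which also overlapped. MMP1 to DUSP6 was 1.07 to 1.25 with DMSO and 1.05 to 1.06 with ginkgolic acid. The last pair did not overlap, although the nearest libraries were close. Both genes were high in ginkgolic acid replicate 1, and their ratio had an SD of 0.004 around a mean of 1.06 among the treated libraries. Counting error alone is 4.20% for DUSP6 and 4.09% for MMP1 there. The ratio thus varied less than counting error allows for, and nothing is read from its closeness. With DMSO its SD was 0.099.

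Per kilobase of gene length the order of the 4 levels differed between the groups. With DMSO, SOS1 was lowest at 191 to 199 normalised read counts per kilobase, followed by DUSP6 at 259 to 282. MMP1 at 710 to 793 and FOSL1 at 813 to 889 followed, and no neighbours in this order overlapped. With ginkgolic acid, DUSP6 was lowest at 113 to 142 and MMP1 next at 281 to 353. SOS1 at 402 to 418 and FOSL1 at 404 to 427 overlapped, so these neighbours did not differ beyond their spread. SOS1 was thus the least abundant of the 4 genes per length with DMSO and overlapped FOSL1 with ginkgolic acid. On the authors' scaling SOS1 was higher and FOSL1 lower there, so the overlap rests on both genes. Gene length here counts all annotated exonic bases, which need not equal the length of the transcripts present.

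The rest of the route was looked up in 11 lists with 252 distinct genes, from growth factors to AP-1 targets. Of these, 8 (3.17%) were in the table, 5 higher and 3 lower. For comparison, the table holds 403 genes (2.5%) of the 16104 in the authors' analysis, a number worked out from their adjusted p-values, with 1.57% higher and 0.931% lower. The bases of these shares differ, since the 252 list genes were counted whether or not the authors' analysis covered them. The 8 genes had a median of 1.12 by the log2 fold changes of the authors' deposited table, against 1.12 over all 403 genes. The lists include the 4 genes themselves, which were picked from the table. Of all genes held 62.8% were higher and 37.2% lower. The limma fit called every one of the 403 genes, which had been selected on these libraries, so its calls add nothing here.

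**Figure D3:**
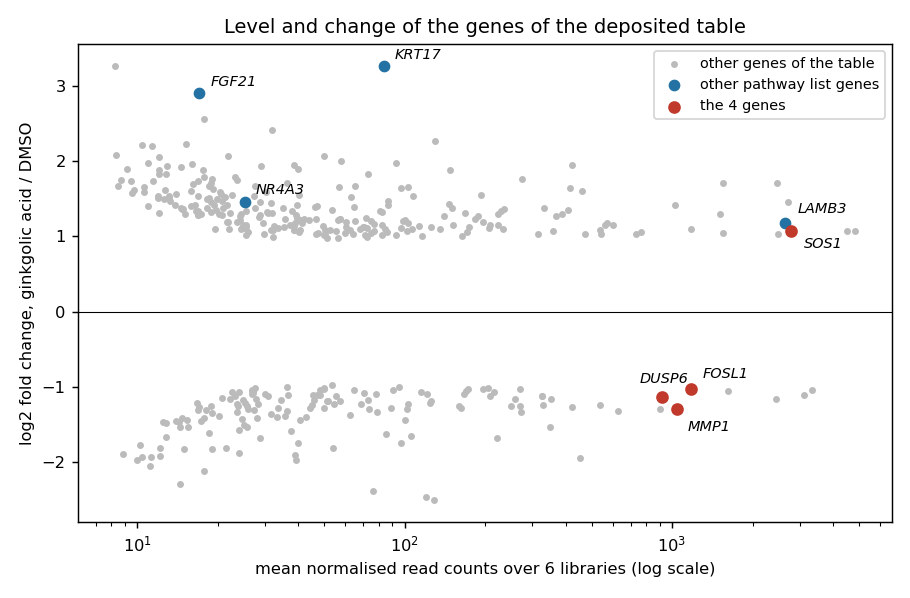
Log2 fold change of ginkgolic acid over DMSO (vertical axis) against the mean normalised read counts over 6 libraries (horizontal log axis) for the 403 genes, with the 4 genes in red and the other 4 pathway list genes in blue. No gene lies near 0 because the table holds selected genes, and the 4 genes lie at the right, among the most abundant.

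By step of the route, most lists had few or no genes in the table. The table holds 2.5% of all genes in the authors' analysis, and at that share short lists hold few or none. SOS1, DUSP6 and FOSL1 were themselves picked from the table, so these counts show no pattern along the route. Of the EGF family ligands 0 of 11 were there, of the receptor tyrosine kinases 0 of 29, of the RAS proteins and their GTPase activators 0 of 21, and of the RAF, MEK, ERK and scaffold genes 0 of 22. SOS1 was the 1 gene of 25 among adaptors and exchange factors. DUSP6 was the 1 gene of 21 among MAP kinase phosphatases and Sprouty-type inhibitors, and FOSL1 the 1 of 19 among AP-1 subunits. Of a 10-gene signature of ERK output (CCND1, DUSP4, DUSP6, EPHA2, EPHA4, ETV4, ETV5, PHLDA1, SPRY2 and SPRY4), DUSP6 was the 1 gene in the table. Genes outside the table were not analysed here, and their absence does not show that they were unchanged.

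The AP-1 target genes in the table differed in both directions. Of 41 such genes 3 (7.32%) were in the table, against 2.5% of all genes in the authors' analysis. MMP1, itself picked from the table, was lower and the other 2 were higher. Of all genes held 62.8% were higher and 37.2% lower, so nothing is read from this split. LAMB3, a chain of laminin-332, had 1607, 1697 and 1557 normalised read counts with DMSO and 3429, 3914 and 3626 with ginkgolic acid. KRT17, which encodes keratin 17, had 12.0, 22.9 and 12.0 with DMSO and 161, 156 and 139 with ginkgolic acid. The KRT17 values rest on few reads with DMSO, 48 against 454 with ginkgolic acid. LAMB3 and KRT17 were both higher in every treated library, the opposite of MMP1.

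Of the growth factors, FGF21, a liver hormone of the FGF family, was the 1 of 18 FGF ligands in the table. It had 1.0, 3.81 and 5.99 normalised read counts with DMSO and 20.1, 38.0 and 33.3 with ginkgolic acid, from 11 reads against 92. Of 34 ERK-responsive transcription factors and early genes 1 was in the table. That was NR4A3, an orphan nuclear receptor, with 14.0, 15.3 and 9.98 normalised read counts with DMSO and 35.0, 39.1 and 37.7 with ginkgolic acid. Both were higher in every treated library, and both rest on few reads.

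**Figure D4:**
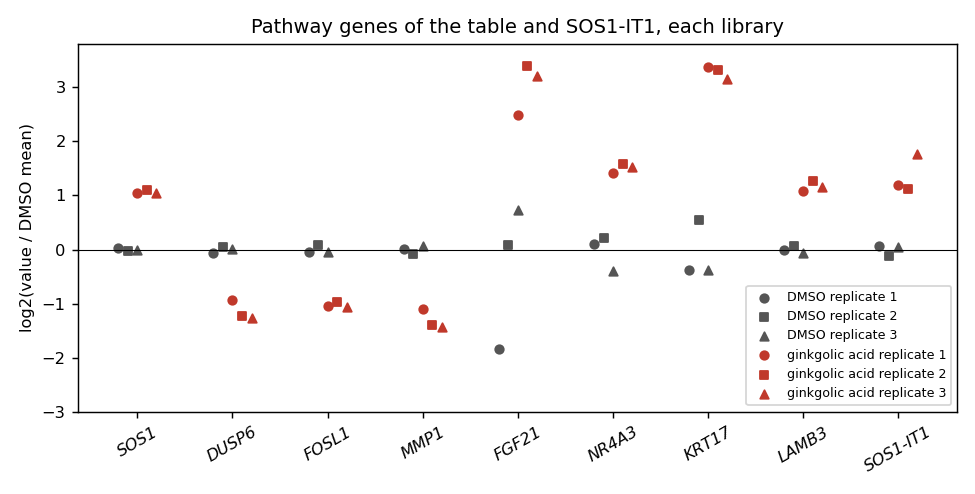
Log2 of each library's value over the DMSO mean (vertical axis) for the 8 pathway list genes of the table and SOS1-IT1, with DMSO in grey, ginkgolic acid in red and marker shape for the replicate. DUSP6, FOSL1 and MMP1 lie below 0 with ginkgolic acid, and SOS1, FGF21, NR4A3, KRT17, LAMB3 and SOS1-IT1 above.

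The genes with the most similar profiles were sought among the 98 others with a mean of at least 100 normalised read counts. Profiles were log2 values over the 6 libraries, each centred on its own mean, and likeness was the root mean square difference. Since the table holds selected genes with folds near 2, close profiles are common, and nothing about shared control follows. For SOS1 the closest were INSIG1, which retains SREBP precursors in the endoplasmic reticulum (0.046), the stress-induced GADD45B (0.065) and SEC24A, a cargo adaptor of COPII vesicles (0.065). The median over the 98 genes was 0.292.

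For DUSP6 the closest were KYNU, an enzyme of tryptophan breakdown (0.046), and ANXA10, an annexin (0.058). For FOSL1 they were HNRNPM, a splicing regulator (0.026), the antisense transcript AL365181.3 (0.074) and ARMC6 (0.086). HNRNPM, at 4508 ± 189 normalised read counts with DMSO and 2195 ± 127 with ginkgolic acid, was the closest match of any of the 4 genes. Close to MMP1 were the mitochondrial deformylase PDF (0.103) and the peroxisomal oxidase ACOX2 (0.108). DUSP6 and MMP1 differed from each other by 0.109, DUSP6 and FOSL1 by 0.132, and FOSL1 and MMP1 by 0.201. The search covered 98 genes, all outside the lists except LAMB3, while only a few genes lay within the route, so these distances are not compared.

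**Figure D5:**
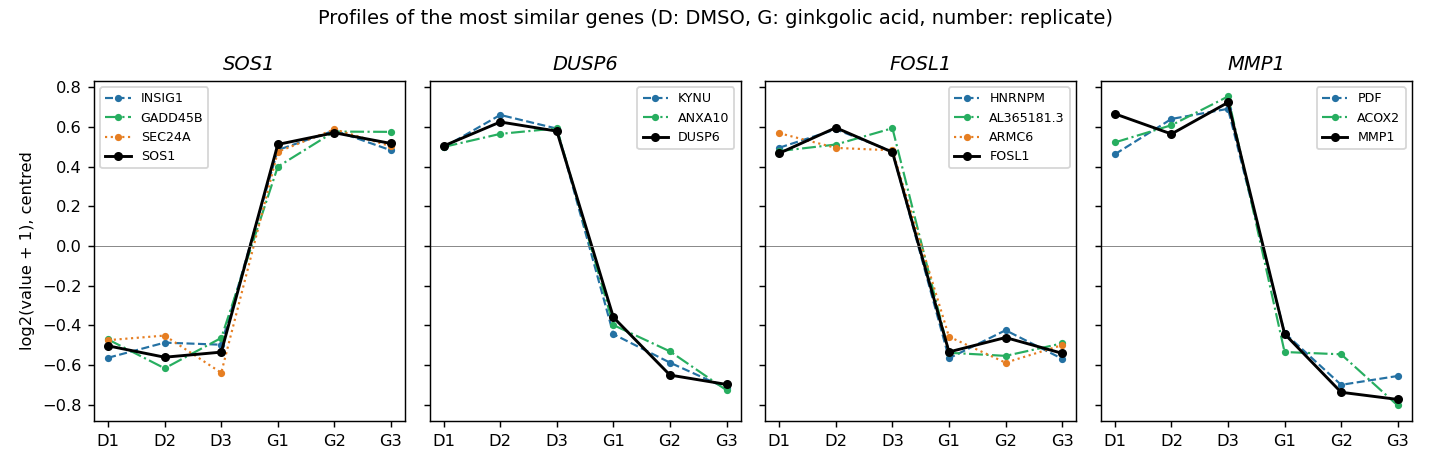
Centred log2(value + 1) (vertical axis) in the 6 libraries for each of the 4 genes (black) and genes with the most similar profiles (coloured, up to 3 for each), where lines only link points of a gene. The step between DMSO and ginkgolic acid is near 1 log2 unit in all panels, and DUSP6 and MMP1 are highest among treated libraries in replicate 1.

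Over the 403 genes the libraries held 67006 to 98627 reads, and the total depth is unknown. Of 16 hepatocyte markers 1 was in the table: ALB (albumin), at 19.1 ± 5.97 normalised read counts with DMSO and 5.30 ± 3.83 with ginkgolic acid. The ALB values rest on few reads, 58 against 15. The other markers were not analysed here, so the labelled cell type could not be checked further. Of the markers of fibroblasts (6), leukocytes (5) and endothelium (5), 0 were in the table. In bulk RNA, fewer cells making a transcript and less of it per cell cannot be told apart.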

How the data were processed

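The submitters' processing notes name DESeq2 1.20.0, featureCounts 1.5.0-p3, HISAT2 2.0.5, CASAVA 1.8 and fastp, and the build hg38, with settings not given in the sources used here. Deposited values per library are a signal with no stated unit, and all are whole multiples of 1 step per library within 1e-06, so they are called normalised read counts. Reads were recovered from these steps. A table headed FPKM held the same values within 4.6e-08 and no FPKM. The authors deposited a log2 fold change, a p-value and an adjusted p-value per gene, per the file headers. Positions equal GENCODE 29 for all 403 genes.

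Log2(value + 1) was fitted with limma 3.58.1 (R 4.3.3, intensity trend, no covariate) over the 403 genes with Benjamini-Hochberg adjustment, after a filter at a mean of 1 that removed 0 genes. The fit was checked on simulated data. For the 4 genes only fold changes and SEs are given. These fold changes are on the log2(value + 1) scale. Planned count models were not run: a table of selected genes has few low values, and a check for whole reads on low values did not pass. Recovered reads serve only for counting error, ratios and read totals. The named genes were the 4 genes, every list gene in the table and the 3 most similar profiles per gene, some of which are not reported here. The 4 genes and all lists were chosen with earlier results of these data known. Python 3.11.15, numpy 2.4.6, pandas 2.3.3 and matplotlib 3.10.9 did the rest.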

Additional observations from a re-analysis of the deposited data

How the results depend on the processing

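The direction of SOS1, DUSP6, FOSL1 and MMP1 was the same under all 13 alternatives run for each, and 12 of the 13 moved its log2 fold change by less than the SD between libraries. The exception was the median-of-ratios rescaling over the selected genes, which by its construction centres the libraries on changed genes and shifted the log2 fold change of the median gene by -0.88. It gave 0.16 for SOS1, -2.04 for DUSP6, -1.93 for FOSL1 and -2.20 for MMP1, and 3 in place of 5 pathway list genes called higher. With any 1 library left out, the values were 1.05 to 1.08 for SOS1, -1.24 to -1.07 for DUSP6, -1.05 to -0.98 for FOSL1 and -1.41 to -1.24 for MMP1, with 5 genes called higher and 3 lower each time. Since the genes were selected on these libraries, stable directions were largely fixed in advance. The labels state no pairing, so the replicate numbers were not taken as pairs. Deviations of same-numbered libraries correlated at -0.03, 0.00 and -0.07 over the 403 genes. These values cannot exclude pairing, because counting error in genes with few reads weakens such a correlation. In a fit with the replicate block the log2 fold changes were 1.07, -1.14, -1.02 and -1.30 for SOS1, DUSP6, FOSL1 and MMP1. In the same order the SEs were 0.056, 0.092, 0.077 and 0.086 with the block and 0.058, 0.099, 0.076 and 0.098 without it. The calls were again 5 and 3. The filter at 1 removed 0 genes and so tested nothing. The planned count models were not run.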
